A study of Mus musculus with 12 samples.

Results

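The response of wild-type mouse osteoblasts to medium conditioned by prostate tumour cells was described from 6 of the 12 RNA samples of a study on protease-activated receptor 2, the protein encoded by F2rl1. The members were chosen by title: 3 samples titled WT MDA and 3 titled WT Control. All cells were primary osteoblasts, freed by sequential collagenase digestion from the skull vaults of neonatal C57Bl/6J mice and precultured for 48 h. They then spent 4 days in BRFF-HPC1, a medium for prostate cells, with 20% fetal calf serum. In the unconditioned group this medium was fresh, and in the conditioned group it had been kept for 48 h on MDA-PCa-2b, a human prostate cancer line. The other 6 samples came from F2rl1 -/- mice under the same 2 media. No label says that samples of a group came from separate animals, so p-values here cover the spread among these samples, which may be technical.

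Unconditioned libraries 0 and 1 gave equal fragment numbers for 91.8% of 17538 detected genes and differed by less than the sampling noise (their chi-square was 759 at 15474 degrees of freedom, while the next lowest of any pair was 94766 at 15124). They were counted as 1 library, named unconditioned library 0 here, which leaves 2 unconditioned and 3 conditioned libraries. One of the samples titled WT Control carries the genotype label F2rl1 -/-, and the library numbers of the table are not tied to the sample titles. F2rl1 itself had 25 and 20 fragments in the unconditioned and 14, 23 and 14 in the conditioned libraries. Whether such low counts tell the genotypes apart was not tested, so the genotype of single libraries was not checked. The 5 distinct libraries held 15023994 to 16309121 fragments. On the first principal component of the 1000 most variable genes (52.1% of the variance over the 11 distinct libraries of the series), the unconditioned libraries lay at -22.4 and -27.9 and the conditioned libraries 0, 1 and 2 at 17.3, 25.2 and -6.89. Conditioned library 2 thus lay nearest to the unconditioned libraries. In the F2rl1 -/- cells, conditioned library 0 stood apart at -0.474, against 43.6 and 50.0 for the other two.

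Osteoblasts build bone: they secrete collagen and mineralise it, and they control osteoclasts, the cells that resorb bone, through the ligand RANKL (Tnfsf11). The lysosome is the acidic compartment in which cells break down proteins, lipids and glycans. Its acidity comes from the vacuolar proton pump, and its genes are jointly controlled by the transcription factors TFEB, TFE3 and MITF, which bind a short promoter motif known as the CLEAR element. Rag GTPases, the Ragulator complex and folliculin sit on the lysosome surface, where they couple nutrient supply to mTORC1 and to those same factors. The glucocorticoid receptor is a second system named below: it switches on genes such as Fkbp5 and Tsc22d3 when it binds cortisol-like steroids.

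The labelled cell type was checked against its markers. Runx2, the osteoblast lineage factor, had 1214 to 1380 fragments in every library, and Col1a1, the main collagen of bone, had 100542 to 240552. Alpl, the phosphatase of mineralising cells, had 178 to 687, and Sp7, a later osteoblast factor, 86 to 584. Markers of mature mineralised bone were nearly absent: Bglap (osteocalcin) had 0 to 7 fragments, Ibsp 3 to 12 and Dmp1 0 to 2. Col2a1, the collagen of cartilage, was abundant, with 22175 to 35209 fragments. The leukocyte marker Ptprc had 7 to 13 fragments and the endothelial marker Pecam1 2 to 4.

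In conditioned medium, some lysosomal genes rose in WT osteoblasts, and some glucocorticoid-induced and cell division genes fell. Of 15197 genes tested with edgeR's quasi-likelihood test and Benjamini-Hochberg adjustment, 243 were called at an adjusted p under 0.05 (1.6%). Of these, 166 were higher in conditioned medium (1.09% of the genes tested) and 77 lower (0.507%). The change exceeded 2-fold for 101 of the genes that rose and for 56 of those that fell. In all 243 called genes the conditioned and unconditioned libraries did not overlap, which was also so for 41.2% of all genes tested. The median log2 change of all genes was 0.01. Of the 15197 genes, 2207 had an unadjusted p under 0.05 (edgeR), to be set beside such counts for the lists below. With the library number of the table as a block, 129 genes were called higher and 149 lower. DESeq2 called 455 higher and 426 lower. Without F2rl1 -/- conditioned library 0, edgeR called 479 higher and 408 lower, and without WT conditioned library 2, 236 higher and 225 lower. These totals are to be set beside the list counts of the same fits below.

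The calls rest on few libraries. No fit without an unconditioned library called more than 1 gene: without library 0 only Renbp remained, and without library 2 none did, at 1244 genes with an unadjusted p under 0.05. Without conditioned library 0, 15 genes were called, without library 1, 68, and without library 2, 461. Conditioned library 2 had the smallest shift from the unconditioned mean in 190 of the 243 called genes (78.2%), against 43.1% of all genes tested. Every called gene kept its direction in each of these fits. Since the groups of each called gene did not overlap, this was largely fixed in advance and lends the calls no support.

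The lysosomal genes are introduced by their promoters, because a motif there was more frequent in the genes called higher than in all genes tested. The searched letters were TCACGTG, the core of the CLEAR element, on either strand. RefSeq windows (GRCm38.p6) reach from 250 bases before to 50 after a start site and were found by symbol, inside or next to the locus, for 10413 of the tested genes, some of which have several windows. The motif lay in 27.7% of the windows of genes called higher (43 of 155), in 5.87% of those of all genes tested (772 of 13162), in 3.76% of all windows of the table and in 1.43% of those of genes called lower (1 of 70). It overlaps the plain E-box CACGTG, which occurred in 31.0%, 9.86% and 4.29% of the windows of genes called higher, tested and called lower. Counted by gene, 41 of the 121 genes called higher with a window held the motif, and most of the 41 lie outside the lysosomal lists. In the 4 lysosomal lists described below, 12 of the 28 called genes with a window held the motif and 16 did not. It lay in 14 of the 65 genes of these lists that were not called. Below are the 150 bases before the start site of 8 genes that rose, chosen because they hold the motif, written 5′ to 3′ on the strand of the gene, with each match in capitals. They encode a membrane glycoprotein (Lamp1), a transporter (Mfsd1), a protease (Ctsa), a chloride-proton exchanger (Clcn7), a pump subunit (Atp6v0b), a Ragulator anchor (Lamtor1), a folliculin partner (Fnip1) and an enzyme receptor (Igf2r).
Lamp1 (chr8:13159011-13159160, forward strand): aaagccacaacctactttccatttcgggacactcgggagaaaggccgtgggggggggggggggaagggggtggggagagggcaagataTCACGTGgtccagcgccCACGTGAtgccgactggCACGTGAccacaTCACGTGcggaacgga
Mfsd1 (chr3:67582618-67582767, forward strand): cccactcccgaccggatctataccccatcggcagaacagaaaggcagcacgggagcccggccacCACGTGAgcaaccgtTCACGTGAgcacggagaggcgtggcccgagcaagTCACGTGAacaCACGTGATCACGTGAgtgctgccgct
Ctsa (chr2:164833623-164833772, forward strand): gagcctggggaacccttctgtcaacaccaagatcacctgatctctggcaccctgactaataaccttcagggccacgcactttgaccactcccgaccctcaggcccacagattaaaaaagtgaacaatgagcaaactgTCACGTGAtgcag
Clcn7 (chr17:25133241-25133390, forward strand): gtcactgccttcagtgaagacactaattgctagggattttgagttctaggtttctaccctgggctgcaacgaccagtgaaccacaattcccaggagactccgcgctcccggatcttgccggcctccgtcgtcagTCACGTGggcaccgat
Atp6v0b (chr4:117887330-117887479, reverse strand): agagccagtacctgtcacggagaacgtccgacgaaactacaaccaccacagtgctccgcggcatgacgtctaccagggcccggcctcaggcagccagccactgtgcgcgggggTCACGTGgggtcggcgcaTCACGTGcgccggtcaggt
Lamtor1 (chr7:101905687-101905836, forward strand): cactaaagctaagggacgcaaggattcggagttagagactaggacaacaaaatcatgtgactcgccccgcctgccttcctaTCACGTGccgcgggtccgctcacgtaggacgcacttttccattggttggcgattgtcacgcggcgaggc
Fnip1 (chr11:54438029-54438178, forward strand): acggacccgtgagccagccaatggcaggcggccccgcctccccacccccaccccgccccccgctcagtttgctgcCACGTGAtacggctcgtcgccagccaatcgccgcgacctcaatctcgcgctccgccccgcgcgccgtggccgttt
Igf2r (chr17:12769707-12769856, reverse strand): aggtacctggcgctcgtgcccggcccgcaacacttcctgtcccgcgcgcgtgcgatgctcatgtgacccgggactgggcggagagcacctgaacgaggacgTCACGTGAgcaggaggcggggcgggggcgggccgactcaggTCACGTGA
Lamp1 and Mfsd1 each hold 4 separate runs in capitals, Atp6v0b and Igf2r 2 and the others 1. A match describes the letters in the window and not binding.

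**Figure D1:**
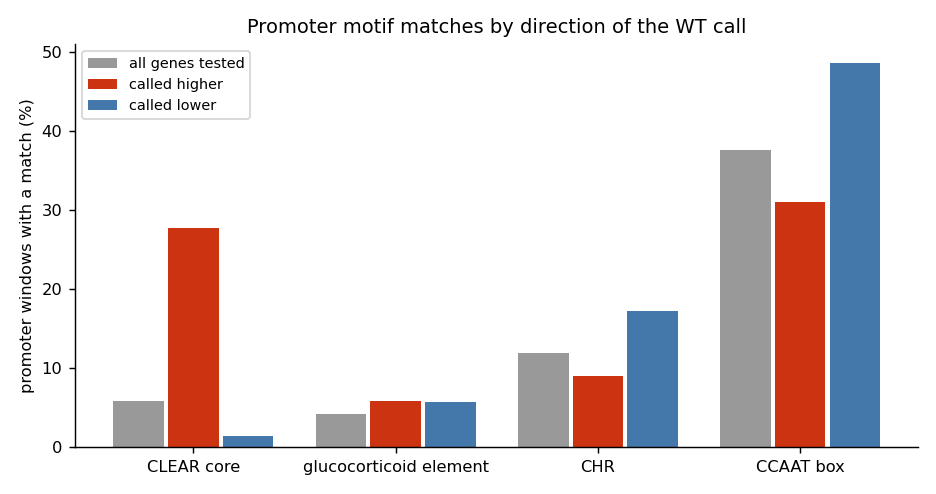
Share of 300-base promoter windows with at least 1 match to each of 4 motifs, on either strand, for all genes tested, genes called higher and genes called lower in conditioned medium. The CLEAR core stands at 27.7% for genes called higher, against 5.87% for all genes tested and 1.43% for genes called lower.

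Some enzymes that work inside the lysosome rose. Of 49 lysosomal hydrolases and their activators tested, 16 were called higher and none lower, 45 had a positive log2 change and the median was 0.70. Levels are given as CPM, fragments relative to the TMM-scaled size of the library. Hexa, a subunit of the hexosaminidase that degrades gangliosides (chr9:59539667-59565105, GRCm38), stood at 114 and 103 in unconditioned libraries 0 and 2 and at 377, 406 and 272 in conditioned libraries 0, 1 and 2. The lowest conditioned library was well above both unconditioned ones, and the log2 change was 1.70 ± 0.22 (SE, adjusted p = 0.014, edgeR). Ctsa, a protease that also shields other lysosomal enzymes, had 255 and 248 CPM against 628, 653 and 474, a log2 change of 1.22 ± 0.16 (adjusted p = 0.014, edgeR). Gla, which removes terminal galactose from glycolipids, had 32.8 and 35.2 CPM against 179, 107 and 112. Its log2 change was 1.96 ± 0.27, and here conditioned library 0 was the highest.

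Other called hydrolases degrade proteins, lipids and glycans. Dpp7, a dipeptidase, had a log2 change of 2.20 and Asah1, the acid ceramidase, 1.24. Tpp1, a peptidase, and Idua, which degrades glycosaminoglycans, had 1.17 and 0.95. Gaa, which degrades glycogen, had 1.08, and Psap, the precursor of the saposins, 0.94. Smaller called changes were those of the thioesterase Ppt1 (0.72), the phospholipase-like Plbd2 (0.70) and cathepsin Z, Ctsz (0.60). The list also holds Uap1l1, a relative of a nucleotide sugar enzyme with no known lysosomal role, which had 37.6 and 37.0 CPM against 247, 239 and 174. Members that were not called include Ctsd, with a log2 change of 0.86 (adjusted p = 0.082, edgeR), and Neu1, with 12.9 and 11.3 CPM against 43.6, 54.0 and 29.1 (adjusted p = 0.067). Pla2g15 had the lowest value of the list, -0.45.

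Some genes for proteins of the lysosomal membrane and of the traffic to it also rose. Of 32 tested, 6 were called higher and none lower, 31 had a positive log2 change and the median was 0.66. Gpnmb, a transmembrane glycoprotein of lysosomes and melanosomes (chr6:49036518-49070856), had the largest change of the list. Its level was 91.9 and 96.5 CPM in unconditioned and 935, 668 and 713 in conditioned libraries, a log2 change of 3.03 ± 0.41 (adjusted p = 0.015, edgeR). Lamp1, the most abundant lysosomal membrane protein gene of the called set per length (389 FPKM in unconditioned and 855 in conditioned medium, means of 2 and 3 libraries), had 933 and 866 CPM against 2178, 2129 and 1712. The libraries of the groups were well apart for both genes. The others called were Ctns, the cystine exporter (20.1 and 19.8 CPM against 61.8, 67.2 and 40.7), Grn, the progranulin precursor (1.01), Npc1, the cholesterol exporter (0.88), and Igf2r, the receptor that delivers enzymes carrying mannose phosphate (0.81).

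The proton pump had the largest share of called members among the 4 lysosomal lists. Of 18 subunits and accessory proteins tested, 10 were called higher, all 18 had a positive log2 change and the median was 0.86. Atp6ap2, the accessory subunit also known as the prorenin receptor, had 84.1 and 89.4 CPM against 261, 243 and 209 (log2 change 1.46 ± 0.15, adjusted p = 0.0053, edgeR). Atp6v0b, of the ring that carries protons through the membrane, had 41.5 and 45.1 CPM against 123, 123 and 84.0. Atp6v1a, the catalytic subunit, had 236 and 230 CPM against 447, 448 and 339, a log2 change of 0.82. In each of these 3 genes conditioned library 2 was the lowest of the conditioned libraries. The largest change in the pump was that of Atp6v0d2, an isoform known from osteoclasts and macrophages. It rose from 0.698 and 0.748 CPM to 5.68, 4.54 and 4.16, a log2 change of 2.72 ± 0.30 (adjusted p = 0.0058, edgeR), while Atp6v0d1, the widely expressed isoform, rose from 128 and 128 CPM to 280, 235 and 232.

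Some genes of the nutrient sensing platform on the lysosome rose, but the factors that bind the CLEAR motif were not called. Of 21 genes of this list tested, 7 were called higher, none lower, and the median log2 change was 0.58. Rragd, a Rag GTPase (chr4:32982998-33022180), had 4.06 and 2.31 CPM against 37.6, 28.9 and 21.0, a log2 change of 3.19 ± 0.63 (adjusted p = 0.043, edgeR), the largest of all called rises. Flcn, which encodes folliculin, had 41.5 and 43.5 CPM against 117, 108 and 98.9. Its partners Fnip1 and Fnip2 had log2 changes of 1.03 and 1.42, and the Ragulator subunits Lamtor1, Lamtor3 and Lamtor4 had 0.91, 0.78 and 0.98. For the transcription factors the values were near or below 0: Tfeb had a log2 change of 0.03 ± 0.31, Tfe3 -0.01 ± 0.15 and Mitf -0.30 ± 0.17. Tfe3 stood at 74.7 and 79.4 CPM against 78.0, 73.9 and 78.2, with overlapping groups. Of 26 autophagy genes tested, edgeR called 0 (11 had an unadjusted p under 0.05) and the median was 0.07, while DESeq2 called 6 higher and edgeR without F2rl1 -/- conditioned library 0 called 7 higher and 1 lower. In the fit of all libraries Sqstm1, a cargo receptor, had 1.04 ± 0.32 (adjusted p = 0.15, edgeR).

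**Figure D2:**
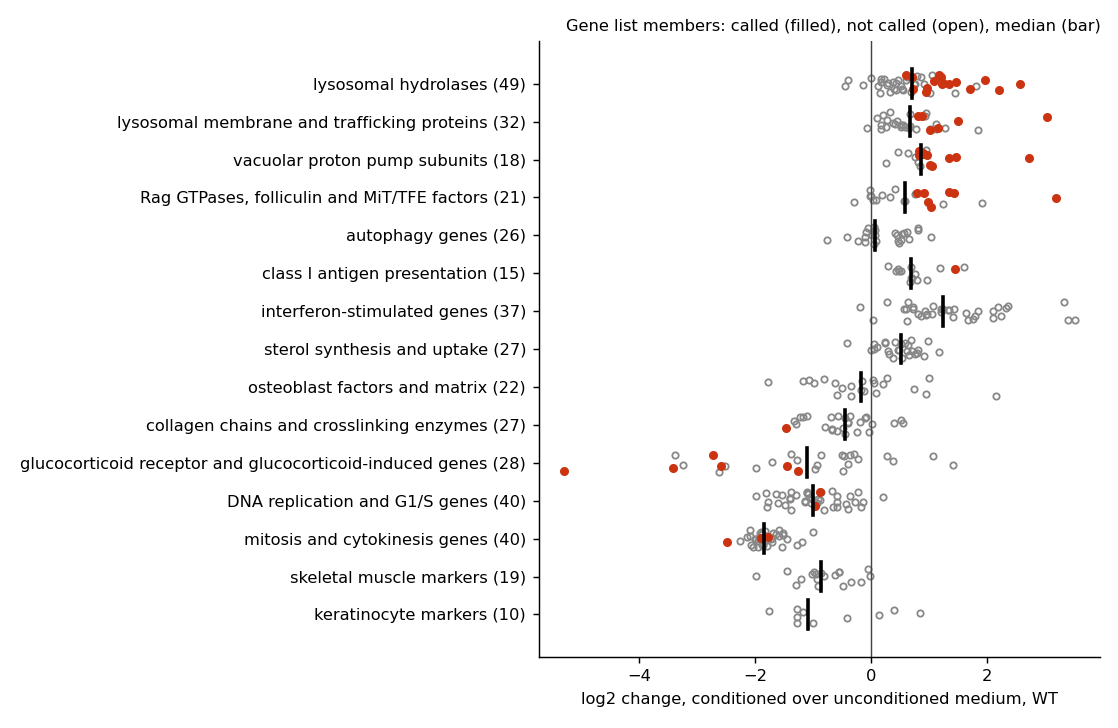
Log2 change in conditioned over unconditioned medium for every tested member of 15 gene lists in WT osteoblasts, with the number tested in parentheses. Filled points were called at an adjusted p under 0.05 (edgeR), open points were not, and the bar is the list's median. All 18 proton pump genes lie above 0 and all 40 mitosis genes below.

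Without F2rl1 -/- conditioned library 0, which stands apart, the same fit called 25 of the hydrolases higher and 1 lower. It called 15 membrane proteins, 15 pump genes and 9 of the Rag and folliculin list higher. Over all genes it called 479 higher, against 166 in the fit of all libraries. Without WT conditioned library 2 the numbers of the 4 lists were 21, 12, 14 and 9, none lower, while 236 of all genes were called higher. The numbers of the lists fell to 1, 0, 2 and 0 without conditioned library 0 and to 7, 2, 3 and 2 without conditioned library 1. With either unconditioned library left out, 0 were called in these 4 lists. Their medians moved little over the same fits, from 0.61 to 0.76 for the hydrolases and from 0.79 to 0.95 for the pump when each WT library was left out in turn.

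Ctsk and Atp6v0d2 also stand on the list of osteoclast markers, where they were the 2 of 8 tested members that were called. Ctsk, a collagen-degrading protease, had 108 and 93.9 CPM against 359, 255 and 220 (log2 change 1.46 ± 0.28, adjusted p = 0.038, edgeR). The summed level of the osteoclast list was 161 to 168 CPM in the unconditioned and 305 to 455 in the conditioned libraries, and most of it is Ctsk. The defining osteoclast genes were at or near 0 in all WT libraries: Dcstamp had no fragment, Calcr 0 to 3, Ocstamp 0 to 2 and Oscar 4 to 8. Acp5 had 15 to 26. Of 23 macrophage and leukocyte genes tested, 1 was called, Cd200r4, with 9 and 11 fragments against 72, 81 and 50. In this list 16 members had a positive log2 change and 7 a negative one, and the median was 0.53. The summed level of that list was 88.5 and 131 CPM in unconditioned and 160, 146 and 196 in conditioned libraries. The part of such cells in the lysosomal values was not tested, and in bulk RNA a change in the share of a cell type and a change in RNA per cell cannot be told apart.

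Some genes that glucocorticoids are known to induce fell. Of 28 tested, 6 were called lower and none higher, 24 had a negative log2 change and the median was -1.11. Fkbp5, a chaperone partner of the glucocorticoid receptor and a common readout of its activity (chr17:28398753-28517508), had 97.2 and 97.5 CPM in unconditioned and 6.24, 15.3 and 22.7 in conditioned libraries. The conditioned values differ among themselves, but all are far below the unconditioned ones, and the log2 change was -2.72 ± 0.38 (adjusted p = 0.015, edgeR). Serpina3n, a secreted protease inhibitor (chr12:104406708-104414329), had 404 and 387 CPM against 31.8, 25.7 and 54.3, a log2 change of -3.41 ± 0.64. Its neighbour Serpina3m had 11.9 and 13.7 CPM against 0.0624, 0.0658 and 0.832, the largest fall of all called genes (log2 change -5.29 ± 0.97, adjusted p = 0.033, edgeR). These neighbours are close copies of each other, so fragments may have been divided between them.

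Angptl4, a secreted inhibitor of lipoprotein lipase, had the smallest p among the called falls. It had 69.6 and 68.3 CPM against 9.99, 8.03 and 16.3, a log2 change of -2.59 ± 0.25 (adjusted p = 0.0053, edgeR). Tsc22d3 (GILZ), a mediator of glucocorticoid action, had 91.6 and 93.7 CPM against 33.8, 38.7 and 43.9. Pdk4, a kinase that limits glucose oxidation, had 26.5 and 24.1 CPM against 7.18, 10.5 and 10.1. The unconditioned libraries of these genes lie close together and the conditioned ones below them. Zbtb16, another steroid-induced gene, had a log2 change of -3.39 but was not called (adjusted p = 0.062, edgeR), and the receptor gene Nr3c1 had 0.38 ± 0.18 (adjusted p = 0.36). With 1 of the conditioned libraries 0 and 1 left out, 2 members of the list were called. Without conditioned library 2, 8 were called, without either unconditioned library none, and without F2rl1 -/- conditioned library 0, 10.

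The letters ACANNNTGT, a loose form of the receptor's binding element, occurred in 18.8% of the windows of this list (6 of 32), in 4.13% of those of all genes tested and in 5.71% of those of genes called lower. Serpina3n holds a match 76 bases before its start site, shown as the called member of this list with the highest level per length (182 FPKM, the mean of the unconditioned libraries).
Serpina3n (chr12:104406558-104406707, forward strand): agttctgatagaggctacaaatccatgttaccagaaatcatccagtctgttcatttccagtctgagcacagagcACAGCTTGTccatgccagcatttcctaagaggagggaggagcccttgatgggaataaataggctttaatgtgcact

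Few genes of cell division were called, although nearly all had negative values. All 40 genes of mitosis and cytokinesis tested had a negative log2 change, with a median of -1.85, and 3 were called. Prc1, which bundles the microtubules of the spindle midzone, had 48.8 and 61.6 CPM against 7.74, 12.5 and 24.0 (log2 change -1.90 ± 0.39, adjusted p = 0.047, edgeR). Tpx2, a spindle assembly factor, and Spc24, a kinetochore protein, were the other two, at -1.77 and -2.49. Among members not called, Mki67, the proliferation marker, had 87.4 and 155 CPM against 11.0, 25.3 and 46.6, and Top2a had 143 and 192 against 21.0, 34.1 and 74.4. In these 3 genes with given levels, conditioned library 2 was the highest of the conditioned libraries and still below both unconditioned ones. Without that library the same test called 38 of the 40 lower, and without F2rl1 -/- conditioned library 0 it called 18, whereas without any other WT library it called none. DESeq2 on all libraries called 38, and the fit with the library number as a block 15.

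Of 40 DNA replication genes, 39 had a negative log2 change, with a median of -0.99. Rrm1, a subunit of ribonucleotide reductase, and Ccne1, a cyclin of replication onset, were called lower, at -0.89 and -0.97. The number called in this list was 15 without conditioned library 2, 14 without F2rl1 -/- conditioned library 0, 21 with DESeq2 and 15 with the block. It was 0 without any other WT library, on WT libraries only and in both fits of FPKM. Further called genes with roles in division outside these lists were chosen here after their values were seen: the condensin gene Ncapd2 (-1.37), the separase gene Espl1 (-1.76) and the kinesin gene Kif14 (-2.18). Among 16 inhibitors and D cyclins, edgeR called 0 (1 had an unadjusted p under 0.05), and Cdkn1a had 0.36 (adjusted p = 0.68, edgeR). The CHR element, searched as TTTGAA on either strand, occurred in 76.5% of the windows of the mitosis list (26 of 34) and in 11.9% of those of all genes tested. Prc1 is printed as the called mitosis gene that holds it.
Prc1 (chr7:80294326-80294475, forward strand): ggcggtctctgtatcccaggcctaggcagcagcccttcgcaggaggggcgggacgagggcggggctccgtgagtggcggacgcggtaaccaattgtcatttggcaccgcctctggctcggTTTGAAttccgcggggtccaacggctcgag

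**Figure D3:**
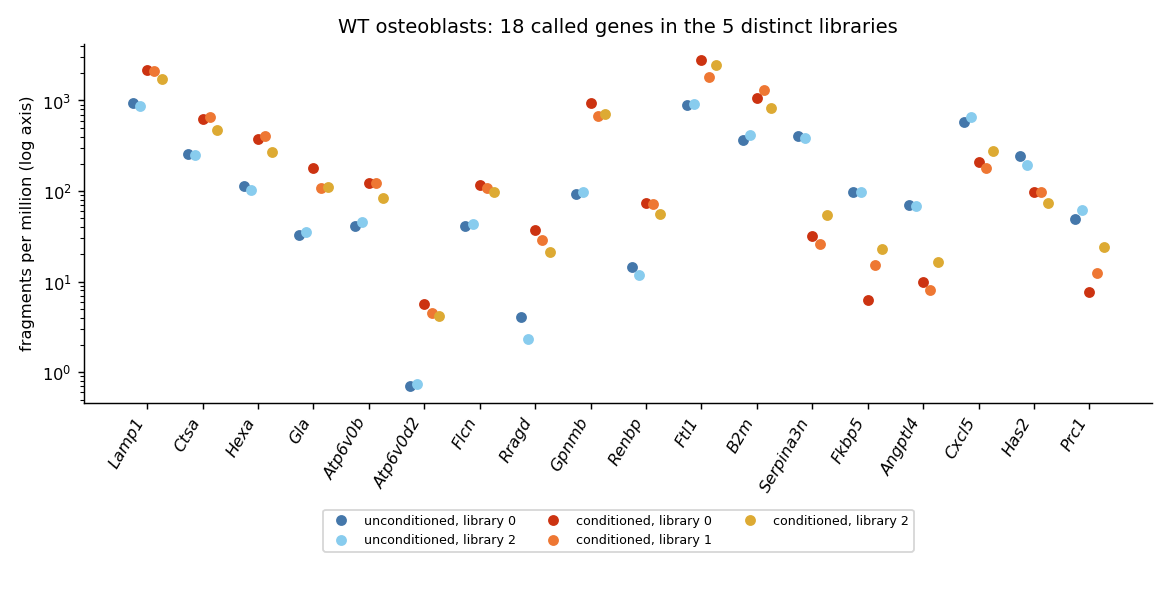
CPM (fragments relative to library size) on a log axis for 18 called genes in the 5 distinct WT libraries. In each gene the 2 blue unconditioned points lie together and apart from the 3 conditioned points, above which they lie from Serpina3n on and below which they lie in the genes before it.

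Several other lists leaned to one side with no or few calls. Interferon-stimulated genes had a median log2 change of 1.23 and 36 of 37 positive values, yet edgeR called 0 (19 had an unadjusted p under 0.05). DESeq2 called 11 higher, and edgeR called 7 without F2rl1 -/- conditioned library 0 and 6 without conditioned library 2. Isg15, a ubiquitin-like modifier, had 7.23 and 5.51 CPM against 35.8, 49.6 and 12.7, and Rsad2, the antiviral protein viperin, had 0.190 and 0.136 against 2.31, 2.63 and 0.897. Conditioned library 2 was the lowest of the conditioned libraries in both, and the list's median in it, after centring each gene on its mean, was -0.24, against 0.61 and 1.08 in libraries 0 and 1 and -0.56 and -0.82 in the unconditioned ones. Of 15 genes of class I antigen presentation all were positive, with a median of 0.69, and B2m, the light chain, was the 1 called. B2m had 370 and 411 CPM against 1066, 1296 and 824, a log2 change of 1.44 ± 0.29 (adjusted p = 0.042, edgeR). The core of the interferon-stimulated response element (ISRE), searched on either strand, occurred in 48.4% of the windows of the interferon list (15 of 31), in 2.89% of those of all genes tested and in 3.23% of those of genes called higher. B2m is printed with its match, 139 bases before the start site.
B2m (chr2:122147537-122147686, forward strand): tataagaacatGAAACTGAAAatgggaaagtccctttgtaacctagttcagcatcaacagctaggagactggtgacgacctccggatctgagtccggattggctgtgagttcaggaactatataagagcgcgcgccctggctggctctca

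**Figure D4:**
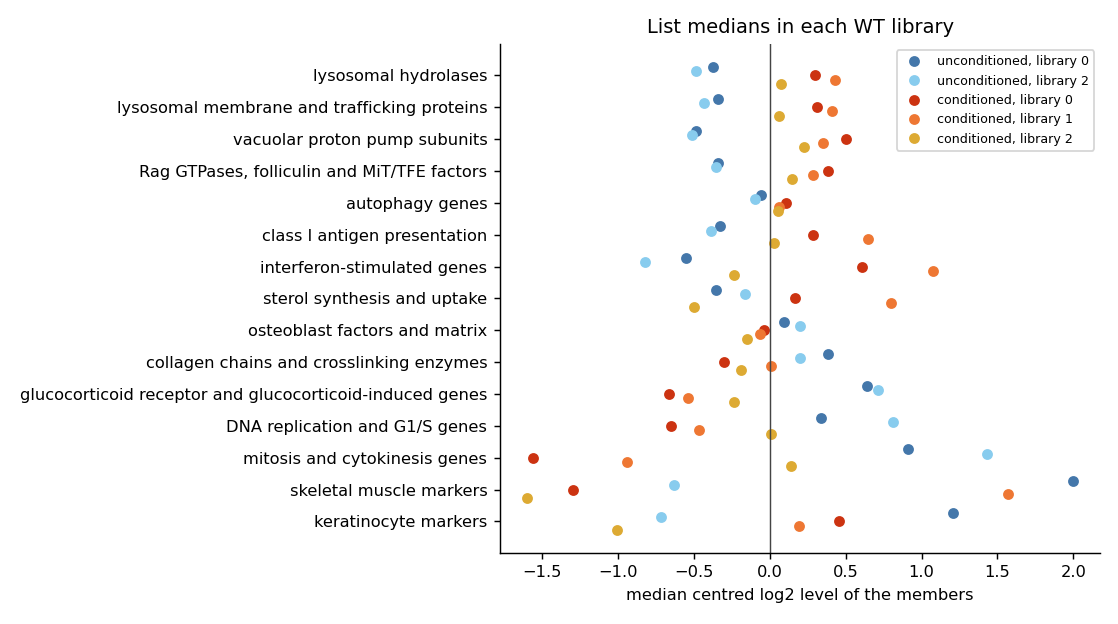
Median over the members of 15 gene lists in each of the 5 WT libraries, as log2 level after centring each gene on its mean over libraries. Conditioned library 2 lies between the other conditioned and the unconditioned libraries in the 4 lysosomal lists, while the skeletal muscle list is high in unconditioned library 0 (2.00) and conditioned library 1 (1.57) and low in the rest.

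Inflammatory and matrix genes included some of the most abundant falls. Cxcl5, a chemokine for neutrophils, had 573 and 658 CPM against 210, 179 and 274 (log2 change -1.48 ± 0.20, adjusted p = 0.014, edgeR). Ptx3, a pattern recognition protein, had 1380 and 1476 CPM against 427, 363 and 677, a log2 change of -1.55. Il1r1, the interleukin-1 receptor, and Il31ra had -1.24 and -2.26. Il1r1, Cxcl5 and Il31ra were the 3 of 23 tested genes of the inflammatory list that were called, all lower. Of all genes tested, 0.507% were called lower. The list as a whole was split, with 13 negative and 10 positive log2 changes and a median of -0.12. Has2, a hyaluronan synthase, had 243 and 195 CPM against 98.0, 98.2 and 74.2, and Col6a2, a chain of collagen VI, 1839 and 1644 against 526, 728 and 634. Col6a2 was the 1 of 27 collagen and crosslinking genes that was called, and the median of that list was -0.46. In the rising direction, Tnxb, an extracellular matrix glycoprotein, had 4.12 and 3.74 CPM against 36.6, 19.6 and 13.6.

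Of 22 genes that define the osteoblast, edgeR called 0 (6 had an unadjusted p under 0.05), 9 were positive and the median was -0.17. DESeq2, edgeR on WT libraries only and edgeR without conditioned library 2 each called 1 lower, and edgeR without F2rl1 -/- conditioned library 0 called 3 lower. Tnfsf11, the osteoclast-inducing ligand RANKL, had 251 and 250 CPM against 52.7, 46.4 and 119, a log2 change of -1.78 ± 0.49 (adjusted p = 0.10, edgeR). The groups did not overlap, but the value missed the threshold. Alpl had -1.18 ± 0.51 (adjusted p = 0.32) and Sp7 -0.99 ± 0.98 (adjusted p = 0.74), with conditioned libraries from 5.66 to 30.5 CPM for Sp7. Wnt4, a Wnt ligand, was the 1 called gene of 24 in the Wnt list, at 15.8 and 17.1 CPM against 4.99, 5.33 and 4.87. Il6 was at 20.3 and 17.7 CPM against 11.5, 25.7 and 7.30, with overlapping groups, and F2r, the receptor related to F2rl1, at 181 and 207 against 197, 236 and 208.

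Single genes of other systems also rose. Ftl1, the light chain of the iron store ferritin, had 895 and 922 CPM against 2778, 1834 and 2460 (log2 change 1.38 ± 0.25, adjusted p = 0.032, edgeR). It had the highest level per length among the genes called, 1039 FPKM in unconditioned and 2766 in conditioned medium. Slc7a11, the cystine importer, had 14.7 and 17.6 CPM against 51.2, 28.5 and 40.4. Bhlhe41, a repressor of the circadian clock, had 3.87 and 2.72 against 16.2, 18.8 and 9.67. For Ftl1 and Slc7a11, unlike most called genes, conditioned library 1 was the one nearest to the unconditioned libraries. Renbp, an enzyme of amino sugar metabolism, had the smallest p of all genes tested, with 14.7 and 12.0 CPM against 74.6, 71.6 and 56.0 (log2 change 2.34 ± 0.17, adjusted p = 0.0011, edgeR).

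Skeletal muscle and skin markers differed between libraries of the same medium. Myog, a skeletal muscle factor, had 135 and 20 fragments in unconditioned and 14, 98 and 9 in conditioned libraries, and Krt14, a keratin of skin, had 156 and 0 against 34, 61 and 0. Unconditioned library 0 and conditioned library 1 were the highest for Myog, Krt5 and Krt14, which were named after their values were seen. The summed level of the skeletal muscle list was 329 and 52.6 CPM in unconditioned and 32.5, 262 and 35.0 in conditioned libraries. The keratinocyte list as a whole went otherwise: its summed level was 77.9 and 46.9 CPM in unconditioned and 86.9, 64.8 and 72.2 in conditioned libraries. Of 19 skeletal muscle and 10 keratinocyte genes tested, edgeR called 0 (0 and 1 had an unadjusted p under 0.05), and DESeq2 called 1 keratinocyte gene lower.

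Markers of smooth muscle and pericytes, the contractile cells of vessels, mostly had negative values, with few calls. Of 17 tested, 15 had a negative log2 change and the median was -0.76. In 12 the WT groups did not overlap, which was also so for 41.2% of all genes tested. The 1 called gene went the other way: Cspg4, a pericyte proteoglycan also known as NG2, had 48.8 and 52.8 CPM against 146, 108 and 129 (log2 change 1.33, adjusted p = 0.0097, edgeR). Acta2, smooth muscle actin, had 1105 and 1101 CPM against 448, 979 and 805, and Cnn1, a calponin, had a log2 change of -1.76 (adjusted p = 0.34, edgeR). The summed level of the list was 2189 and 2186 CPM in unconditioned and 1504, 2218 and 1951 in conditioned libraries, with overlapping groups. The part of muscle, skin or vessel cells in the values above was not tested.

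The same contrast in F2rl1 -/- cells, with their own controls, was set beside the WT values. There 2545 genes were called (16.7%), with 8.8% of the genes tested higher and 7.94% lower. Of the 243 WT calls, 233 were called there in the same direction, which is 95.9% of the WT and 9.16% of the F2rl1 -/- calls. Gpnmb rose by 3.23 on the log2 scale in F2rl1 -/- cells and 3.03 in WT, Hexa by 1.36 and 1.70, and Fkbp5 fell by 2.67 and 2.72. The difference between the medium effects of the genotypes was not called for any gene (edgeR, where the smallest adjusted p was 0.82 and 489 genes had an unadjusted p under 0.05), nor by DESeq2. That count depends on 1 library: without F2rl1 -/- conditioned library 0, 1429 genes were called for the difference (9.43%), of which 5 were among the 243 WT calls. These 5 were Tmem256, Hsf2bp, Dtx4 and a gene with no symbol, which changed more in WT, and Uap1l1, which changed less (2.56 in WT against 3.52).

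In the fit of all libraries, 11 of the 243 WT calls had an unadjusted p under 0.05 for the difference, and in all 11 the change was larger in WT. Angptl4 had a log2 change of -2.59 in WT and -1.47 in F2rl1 -/- cells (unadjusted p = 0.0069, adjusted p = 0.82, edgeR). Slc7a11 had 1.31 and 0.30, Has2 -1.28 and -0.67, and Atp6v0d2 2.72 and 1.70. Hsf2bp, a meiotic recombination protein, had -2.86 and 0.14, at levels of at most 2.11 CPM in WT. These genes were selected for a call in WT, so this direction is not independent of the choice.

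**Figure D5:**
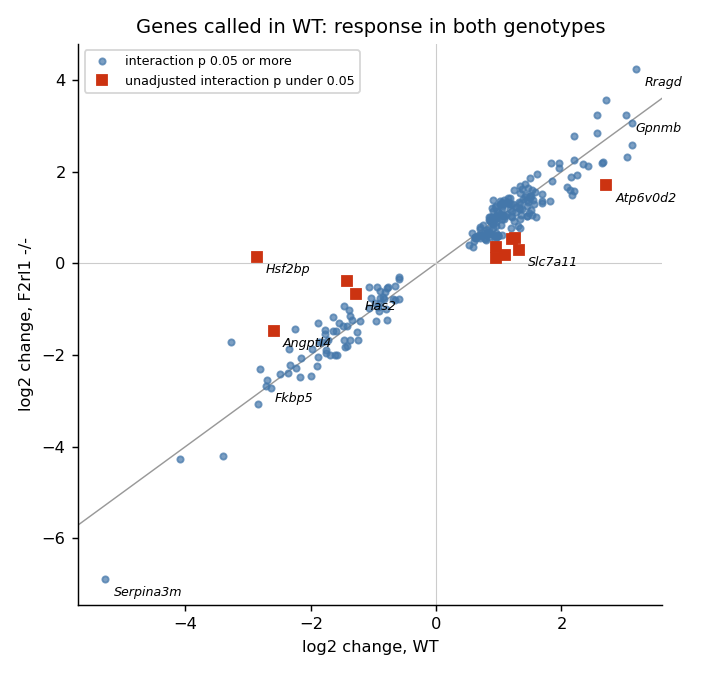
Log2 change in conditioned medium in F2rl1 -/- cells (vertical axis) against that in WT cells (horizontal axis) for the 243 genes called in WT, with the line of equal change. Red squares are the 11 genes with an unadjusted interaction p under 0.05, all with the larger change in WT.

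Use of start sites differed in few of the called genes. In the authors' deposited table of start-site use, 37 of 2508 genes tested in this contrast were marked significant, and 2 of them, Fkbp5 and Bdh2, were among the 243 calls. The authors' matching table per library carries unconditioned libraries 0 and 1 as separate replicates, so these tests may rest on more replicates than there are distinct libraries. Bdh2, a dehydrogenase of ketone and siderophore metabolism, rose by 1.47 on the log2 scale. Its start-site groups shared the estimated fragments almost evenly in unconditioned medium, with 43.5% and 53.5% from one group. In conditioned medium 97.1%, 95.1% and 89.5% came from that group, on 126 to 192 fragments per library. In the authors' deposited table the q-value of this shift was 0.00745. For Fkbp5, the minor start-site group gave 12.3% and 5.76% of the estimated fragments in unconditioned medium and 0%, 0.0011% and 0.0016% in the conditioned libraries.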

How the data were processed

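RNA libraries (TruSeq v2, which does not mark the strand) were sequenced on a HiSeq2000 per the labels' protocols, and the submitters' processing notes name TopHat2 2.0.9, CASAVA 1.8.2, Cuffdiff 2.1.1 and mouse build GRCm38. The deposited per-library fragments are expected counts from Cuffdiff (94.3% whole numbers), which were rounded. The FPKM values, which the authors scaled by gene length and depth, served for 2 alternative fits and for levels per length. The p-values and q-values of start-site tests are the authors' own. The table holds 25511 genes, of which 1714 have no symbol and 407 several.

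Counts of all 4 groups were fitted in 1 model over 11 distinct libraries (7 residual degrees of freedom) with edgeR 4.0.16 in R 4.3.3 (TMM, filterByExpr by group, robust quasi-likelihood), with the 2 nearly equal unconditioned libraries averaged. A standard error is the size of a log2 change over the root of its F value. Genes count as called at an adjusted p under 0.05 (Benjamini-Hochberg within a contrast). The fit was tested on simulated counts with genes changed in the WT conditioned libraries. It recovered 42 of 100 genes changed 2-fold and 97 of 100 changed 4-fold, with 7 false calls. Alternatives were RLE factors, no filter, DESeq2 1.42.0, limma 3.58.1 (voom, and log2 of FPKM plus 1 or 0.1), WT libraries only, each WT library left out, and a block.

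Genes were taken from sets by rule, but not every gene of a set is described above. The first are the 10 rises and 10 falls with the largest log2 changes among called genes whose groups did not overlap. The next are the 10 rises and 10 falls with the smallest p among called genes. The others are up to 6 called members of each list, the F2rl1 family and Il6, and the 10 called genes with the highest FPKM. Of the first set, the rises Gng4 (log2 change 3.13), Cdk15 (3.12), Slc4a10 (3.05), Syngr1 (2.66) and Adh1 (2.65) are not described. Its falls Prdm1 (-4.09), BB123696 (-3.28), Rnf180 (-2.70) and Ankrd55 (-2.63) are also left out. So are the rises Cpeb1, Scrn1, Sept3, Nkain1, Trnp1 and Adamtsl5 and the falls Slc38a4, Il13ra1, Fam131b and Acsl4 of the smallest p. Further genes were named after their values were seen, as examples of members that were not called, as markers, or in the closing section. The members, the 42 gene lists and the motifs were chosen with earlier results of these data known, so list counts are descriptions. Locus starts were moved by 1 base to count from 1.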

Additional observations from a re-analysis of the deposited data

How the results depend on the processing

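Against 243 genes called in the WT contrast (166 higher, 77 lower), DESeq2 called 881 (455 higher, 426 lower) and edgeR on WT libraries only 386 (152 lower). Scaling with RLE factors gave 235, no filter 231, voom 276, and log2 of FPKM plus 1 or 0.1 gave 204 and 175 (49 lower for the latter). Leaving out each WT library or F2rl1 -/- conditioned library 0 gave 0 to 887 calls, 0 to 479 higher and 0 to 408 lower, the lowest without an unconditioned library and the highest without F2rl1 -/- conditioned library 0. A lone unconditioned library was assumed to vary like the other groups. The F2rl1 -/- contrast, 2545 calls, then ranged from 1598 to 6485, and the difference between genotypes from 0 to 1429. Log2 of FPKM plus 1 called 1 gene for that difference, a gene with no symbol. All 243 calls kept their direction in each alternative that tested them, which the lack of overlap between their groups largely fixed in advance.

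The share of calls that were higher was 68.3% and moved to 51.6% with DESeq2, 51.2% without WT conditioned library 2 and 54.0% without F2rl1 -/- conditioned library 0. The replicate block by library number called 278 (149 lower, 46.4% higher). A block with the merged library as number 1 in place of 0, chosen after seeing the data, called 277 (129 lower), and 185 of the 243 calls were among them. Deviations from group means correlated at 0.35, 0.22 and 0.31 for equal numbers in F2rl1 -/- cells. Unequal numbers there gave -0.35 to 0.27, so some exceeded an equal pair. In WT the value was -0.13 for number 0 (0.44 when the merged library is number 1) and 0.40 for number 2. With 2 unconditioned WT libraries the deviations of 1 mirror those of the other, so the WT values are not independent. No label says that a number marks a shared source, and the causes of these shifts were not tested.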

Other observations

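The groups below were put together after the values were seen, so they are descriptions without a test of the group. Retromer carries receptors from endosomes back to the Golgi, and its core genes Vps35, Vps26a and Vps29 were called higher in conditioned medium, with log2 changes of 0.62, 0.93 and 0.68. Vps26b, the other isoform, had 110 and 104 CPM in unconditioned and 99.9, 103 and 105 in conditioned libraries (-0.06). Of the WASH complex, which acts on the same endosomes, Wash, Fam21 and E430025E21Rik (strumpellin) were called higher, at 0.76, 1.09 and 0.98, while A230046K03Rik and Ccdc53 had 0.01 and 0.12 and were not called. The sorting nexins Snx1, Snx2, Snx5 and Snx6 had -0.05 to 0.24, none called. Members were sorted by their call in these same data, so a difference in size of change between called and uncalled members was fixed in advance.

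Among genes of amino sugar metabolism, too, some were called and others were not. Renbp, Gnpda1 and Amdhd2, enzymes that take apart N-acetylated amino sugars or their phosphates, were called higher, at 2.34, 1.69 and 1.20, and Nagk, the salvage kinase, had 0.70 (adjusted p = 0.088, edgeR). Genes of the synthetic route were not called: Gfpt1 had -0.18, Gnpnat1 -0.21, Pgm3 -0.41 and Uap1 -0.46. Uap1l1, the relative of Uap1, was called at 2.56. Of the Steap metalloreductases, which reduce iron and copper, Steap3 was called higher (1.53) and Steap1 and Steap4 lower (-0.65 and -1.77).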
